A study of Mus musculus with 32 samples.

Results

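The interferon regulatory factors are a family of transcription factors that share a DNA-binding domain for sequences of the GAAA type. The members described here, Irf1, Irf2, Irf3, Irf4, Irf5, Irf7, Irf8 and Irf9, are 8 of the 18588 genes of the table. They were taken by name with no cut on their values, though earlier results of these data were known. All 8 were measured in every library, and no member was lost to a filter.

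Microglia had been isolated with CD11b MicroBeads from the forebrains of female mice of both genotypes, WT and rTg4510, aged 2, 4, 6 or 8 months, and RNA was sequenced as 32 libraries, 4 for each genotype and age. rTg4510 mice carry a mutant human tau transgene under a tetracycline-responsive element together with a CaMKIIα-driven tetracycline transactivator, so that tau is made in forebrain neurons after birth and not in the microglia themselves. WT animals carried neither transgene, so the tau and the transactivator cannot be told apart, and the labels give the strain of the WT libraries as 129/FVB F1. Each library came from the pooled forebrains of several animals, so it does not show how much single animals differ. Of the 32 libraries, 28 were used here, with n = 4 at 2 and 6 months and n = 3 at 4 and 8 months in each genotype. Replicate 3 of both genotypes at 4 months and replicate 4 of both genotypes at 8 months had failed the authors' RNAseq QC and enter only where all 32 libraries are named.

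In background terms, IRF3 and IRF7 are held in the cytoplasm until the kinases TBK1 and IKKε phosphorylate them downstream of nucleic acid sensors, and then switch on type I interferon genes. Secreted interferon acts through its receptor, JAK kinases and STAT proteins, which with IRF9 form a complex that switches on the interferon-stimulated genes, Irf7 among them. IRF1 is itself induced by interferon-γ and drives antigen presentation genes, and IRF2 competes with it for the same sites. IRF8, with PU.1, is needed for microglia to form, and acts with IRF5 in inflammatory activation. IRF4 is known from plasma cells, dendritic cells and alternatively activated macrophages. These proteins are controlled in large part by phosphorylation and movement into the nucleus, which RNA does not measure.

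Start site sequences of the members that differed between genotypes are printed here, with that of Irf2 as the window that held the most matches. RefSeq windows of 300 bases (GRCm38.p6), from 250 bases before to 50 after an annotated start, were found for all 8 members, 11 windows in all, and 32851 windows of all genes were searched for comparison. Capitals mark matches to GAAANNGAAA (the core of the interferon-stimulated response element, ISRE), TTCNNNGAA (the gamma-activated sequence, GAS, read by STAT proteins) or GGAANNGAAA (the Ets-IRF composite element, EICE, read by PU.1 with IRF4 or IRF8), each searched on both strands. The ISRE core can overlap the EICE, since both hold GAAA. The windows lie at chr11:53769764-53770063 (plus strand) for Irf1, chr8:120736108-120736407 (plus) for Irf8, chr13:30748983-30749282 (plus) for Irf4, chr7:141266375-141266674 (minus) for Irf7 and chr8:46739495-46739794 (plus) for Irf2.
Irf1: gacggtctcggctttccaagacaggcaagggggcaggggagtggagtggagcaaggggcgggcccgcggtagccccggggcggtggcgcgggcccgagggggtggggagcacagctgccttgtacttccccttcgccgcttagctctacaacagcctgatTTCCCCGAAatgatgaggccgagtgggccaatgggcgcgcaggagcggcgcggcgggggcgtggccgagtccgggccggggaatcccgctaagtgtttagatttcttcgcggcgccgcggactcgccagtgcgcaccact
Irf8: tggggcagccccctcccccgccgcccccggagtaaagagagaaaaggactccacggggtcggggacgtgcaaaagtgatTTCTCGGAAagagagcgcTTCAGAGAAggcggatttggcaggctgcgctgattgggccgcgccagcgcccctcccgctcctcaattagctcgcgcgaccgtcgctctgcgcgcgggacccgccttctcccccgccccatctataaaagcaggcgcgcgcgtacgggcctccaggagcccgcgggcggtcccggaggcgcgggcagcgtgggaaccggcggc
Irf4: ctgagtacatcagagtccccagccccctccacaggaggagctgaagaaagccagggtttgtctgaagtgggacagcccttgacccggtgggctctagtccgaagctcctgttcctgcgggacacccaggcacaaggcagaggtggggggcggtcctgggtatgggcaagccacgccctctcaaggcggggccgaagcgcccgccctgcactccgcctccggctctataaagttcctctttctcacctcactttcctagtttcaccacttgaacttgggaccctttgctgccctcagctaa
Irf7: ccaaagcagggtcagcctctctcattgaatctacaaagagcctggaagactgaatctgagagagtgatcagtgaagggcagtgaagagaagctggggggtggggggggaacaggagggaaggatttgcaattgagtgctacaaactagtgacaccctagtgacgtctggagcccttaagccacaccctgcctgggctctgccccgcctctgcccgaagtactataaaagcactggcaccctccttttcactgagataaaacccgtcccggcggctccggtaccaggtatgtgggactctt
Irf2: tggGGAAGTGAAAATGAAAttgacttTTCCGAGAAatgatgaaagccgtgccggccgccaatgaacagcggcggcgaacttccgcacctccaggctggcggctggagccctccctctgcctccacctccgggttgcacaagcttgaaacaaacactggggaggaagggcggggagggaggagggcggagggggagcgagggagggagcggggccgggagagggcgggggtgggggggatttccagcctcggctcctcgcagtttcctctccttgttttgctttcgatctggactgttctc

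GAS matches were found in the windows of Irf1 (first base 90 before the start), Irf8 (171 and 153 before the start) and Irf2 (224 before the start), while 8.3% of all windows held one. The Irf2 window also held the ISRE core, found in 3.44% of all windows, and an EICE, found in 2.72%, and these 2 matches overlapped. No match to the 3 motifs lay in the printed windows of Irf4 and Irf7, in the second windows of Irf1 and Irf8, or in the windows of Irf3, Irf5 and Irf9. A match is a run of letters and not a site shown to be used, and a window without one says only that these letters are not in it.

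The genotype comparison asks how these factors in microglia changed while tau pathology built up. A gene was said to have risen or fallen where its FDR was below 0.05, and to be a DEG where its change was also above 1.5 fold. Irf8 rose at 4, 6 and 8 months, Irf4 fell at 4 and 6 months, Irf1 rose at 6 and 8 months and Irf7 rose at 8 months. Irf2, Irf3, Irf5 and Irf9 passed at no age in this fit without a replicate block, and at 2 months no member passed. With the replicate number as a block Irf2 passed as lower at 6 months (FDR 0.0456 as a fixed and 0.0405 as a random effect). As DEGs, 0 of 8 members were found at 2 months, 1 at 4 months (Irf4), 2 at 6 months (Irf4 and Irf8) and 2 at 8 months (Irf1 and Irf7), in a table where 1.98%, 13.8%, 19.8% and 15.9% of the genes were DEGs at these ages. By FDR alone 0, 2, 3 and 3 members passed, beside 6.03%, 23.2%, 34.1% and 25.7% of all genes. For the 2-month comparison with limma, 2 members (Irf1 and Irf4) had an unadjusted p under 0.05, as did 16.5% of all genes, and with moderated variances 0 passed. The ranges of the genotypes did not overlap for 1, 5, 4 and 3 members at 2, 4, 6 and 8 months, against 11.0%, 36.6%, 32.8% and 36.7% of all genes. The members' median log2 fold change was 0.0, -0.12, 0.07 and 0.03, beside 0.01, -0.04, -0.04 and -0.01 over all genes, and the family had members on both sides. Fitted on the libraries of 4 or 8 months alone, with fewer libraries to estimate the spread, Irf4 at 4 months (FDR 0.0516) and Irf1 (0.0511), Irf7 (0.0839) and Irf8 (0.0879) at 8 months no longer passed.

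**Figure D1:**
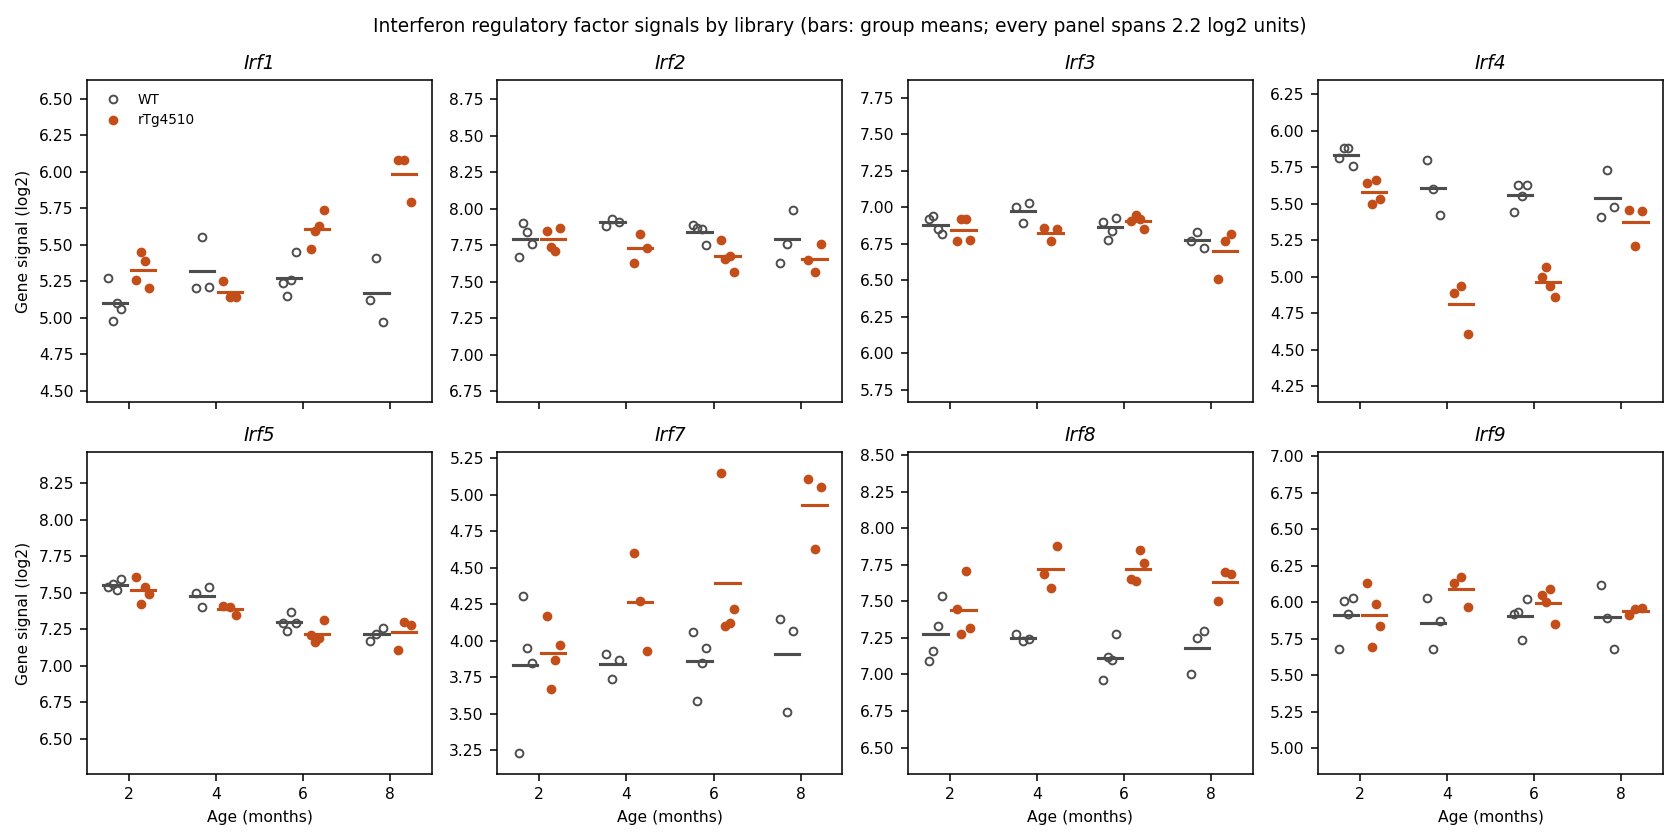
Log2 gene signal (y axis) of each interferon regulatory factor in the 28 libraries by age in months (x axis), open points WT, filled points rTg4510, bars group means, every panel spanning the same number of log2 units. Irf4 in rTg4510 lay below WT at 4 and 6 months, Irf8 above it from 4 months on, and Irf1 above it at 6 and 8 months.

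**Figure D2:**
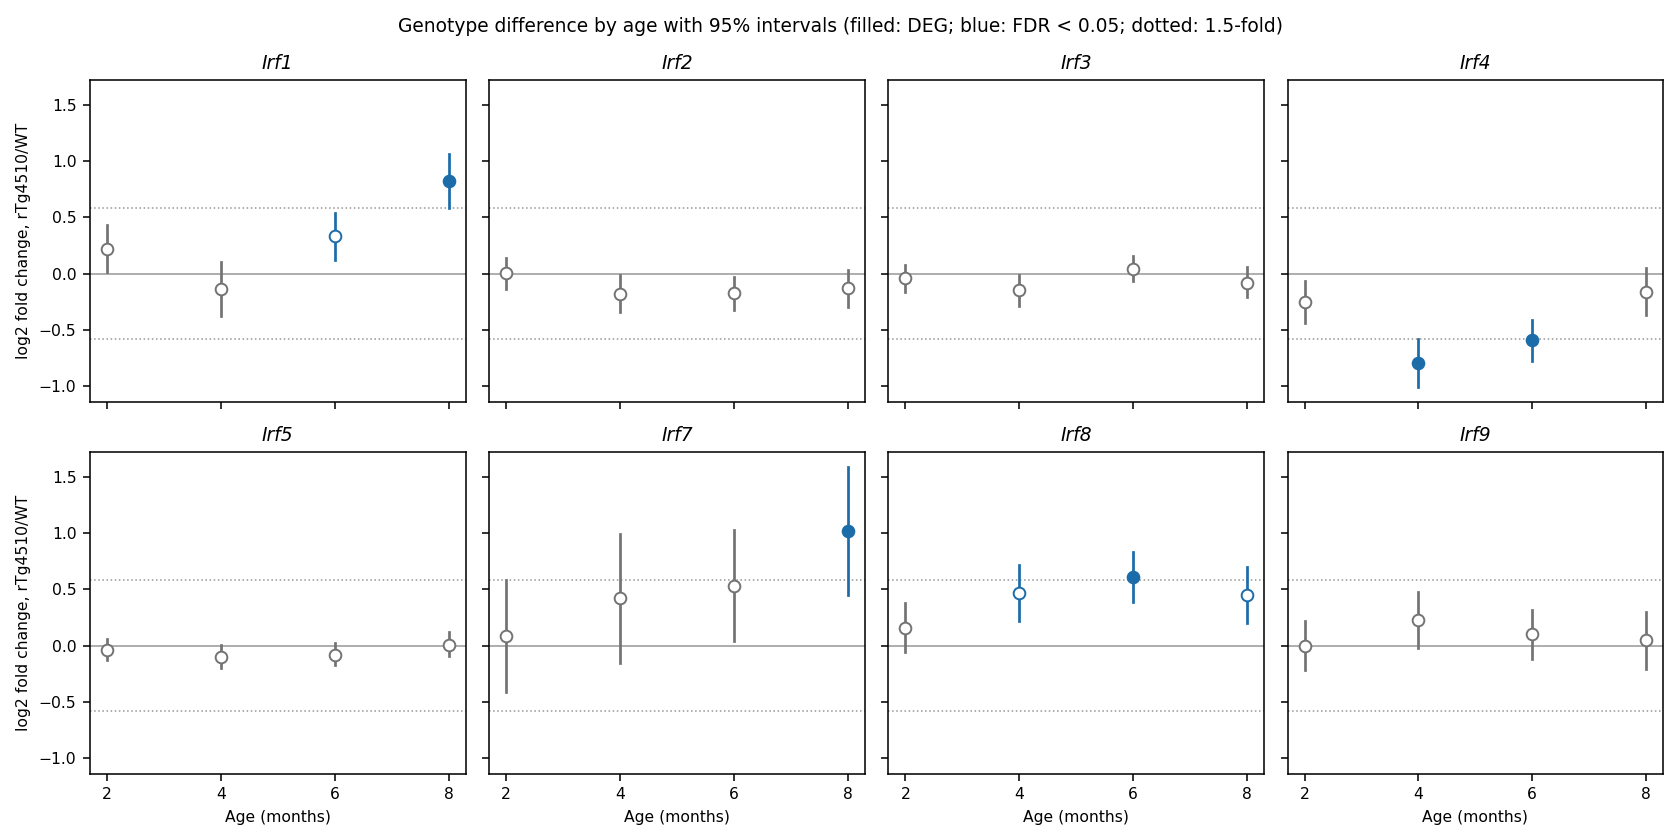
Log2 fold change of rTg4510 over WT (y axis) with its 95% interval by age in months (x axis), filled points DEGs, blue points FDR below 0.05, dotted lines 1.5-fold. Irf1 reached 0.82 and Irf7 1.02 at 8 months, Irf8 peaked at 0.61 at 6 months, and Irf4 was lowest at -0.80 at 4 months.

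Irf8, the lineage factor of microglia and other mononuclear phagocytes, was higher in rTg4510 from 4 months on. At 2 months its signals were 7.09, 7.16, 7.33 and 7.54 in WT and 7.45, 7.28, 7.71 and 7.32 in rTg4510. These ranges overlapped, and the difference was 0.16 on the log2 scale (SE 0.105, FDR 0.499). At 4 months the signals were 7.28, 7.23 and 7.24 in WT and 7.69, 7.59 and 7.88 in rTg4510, every rTg4510 library being above every WT library. Irf8 rose by 0.47 (SE 0.121, 1.38-fold, FDR 0.00662, n = 3 per genotype). At 6 months the WT libraries had 6.96, 7.12, 7.10 and 7.28 and the rTg4510 libraries 7.65, 7.64, 7.85 and 7.76. The groups were again apart, and Irf8 was a DEG with a rise of 0.61 (95% interval 0.39 to 0.83, 1.53-fold, FDR 9.47e-05). At 8 months 7.0, 7.25 and 7.30 in WT stood against 7.50, 7.70 and 7.69 in rTg4510. The rise of 0.45 (SE 0.121, FDR 0.00801) stayed under 1.5 fold, and the lowest rTg4510 library lay above the highest WT library.

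By its estimates the rise of Irf8 had reached most of its size at 4 months, and differences between the later ages were small against their errors. The genotype difference at 4 months exceeded that at 2 months by 0.31 (95% interval -0.03 to 0.64, FDR 0.309), which did not pass. The genotype difference at 6 months exceeded that at 2 months by 0.45 (95% interval 0.14 to 0.76, FDR 0.0511), which missed the threshold. It passed with the replicate number as a block (FDR 0.048 as a fixed and 0.0331 as a random effect). That block also joined same-numbered libraries at 2 months, where the numbers were not taken to pair them. The difference at 8 months stood -0.02 from that at 4 months (interval -0.38 to 0.34). WT libraries held a level of 7.279 ± 0.203 (SD, n = 4) at 2 months and 7.18 ± 0.162 (n = 3) at 8 months. Ordered by mean, the 4 WT groups were the 4 lowest and the 4 rTg4510 groups the 4 highest, with every pair of neighbours in this order overlapping. The DEG status at 6 months rests on a change close to 1.5 fold. It was lost with quantile normalization and when WT replicate 1 or rTg4510 replicate 3 was left out, while the FDR ranged from 3.72e-05 to 0.000634 when single libraries were left out. The rise at 8 months was 0.36 with an FDR of 0.0558 without WT replicate 1 of that age, and its FDR was 0.0879 when the libraries of 8 months were fitted alone.

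Of 14 genes linked to IRF8 or IRF5 in myeloid cells, 1, 6, 6 and 6 were DEGs that rose at the successive ages of 2, 4, 6 and 8 months and 0 were DEGs that fell, where 1.58%, 9.47%, 11.3% and 10.5% of all genes rose as DEGs and 0.403%, 4.33%, 8.54% and 5.37% fell. The list's median log2 fold change was 0.20, 0.44, 0.46 and 0.44. The 6 genes at the later ages were Il1b, Tnf, Tlr2, Cybb, P2rx4 and Ctss. Il1b, which encodes the cytokine interleukin-1β, rose most on average over these ages, by 1.78, 2.41 and 2.26 at 4, 6 and 8 months (FDR 3.71e-05, 4.98e-08 and 1.41e-06). P2rx4, an ATP-gated channel known as a target of the IRF8 and IRF5 pair in reactive microglia, rose by 0.83, 1.11 and 1.09 at these ages. Cybb, the catalytic subunit of the phagocyte oxidase and a textbook target of IRF8 with PU.1, rose by 1.19, 1.47 and 1.44. Cx3cr1, the fractalkine receptor of resting microglia, was the lowest of the list and fell at all 4 ages (-0.35, -0.57, -0.57 and -0.51), each short of 1.5 fold. Csf1r, which IRF8 is also linked to, passed at no age and had -0.13, -0.13 and -0.14 at 4, 6 and 8 months. The members of this list include Aif1, Csf1r, P2ry12 and Cx3cr1, which are also microglia markers.

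Irf5, which encodes the partner of IRF8 in P2rx4 induction and an activator of inflammatory cytokine genes, did not pass at any age. Its genotype differences were -0.04, -0.10, -0.08 and 0.01, and the 95% intervals reached at most -0.20 (4 months) and 0.12 (8 months), so every interval was narrower than a 1.5-fold change in either direction. The values changed with age instead, and in both genotypes. WT libraries had 7.54, 7.56, 7.52 and 7.59 at 2 months and 7.17, 7.22 and 7.26 at 8 months. Between these ages Irf5 fell in WT (-0.33, SE 0.0484, FDR 0.00115, where 4.21% of all genes passed) and in rTg4510 (-0.28, FDR 0.000184, where 21.7% passed), and the ranges did not overlap in either genotype. With all 32 libraries neither fall passed (-0.17 in WT with an FDR of 0.858, -0.16 in rTg4510 with an FDR of 0.657). The excluded libraries stood apart for this gene, at 7.88 (WT) and 7.73 (rTg4510) at 8 months and 8.28 (WT) and 7.86 (rTg4510) at 4 months. Irf5 exons share 411 of 2905 bases (14.1%) with exons of Tnpo3 on the opposite strand (GENCODE annotation of GRCm38), whether strand was used in counting is not given in the sources used here, and reads of the 2 genes cannot be told apart there. The other members share at most 3.4% of their exon bases with another gene. With quantile normalization Irf5 passed as lower in rTg4510 at 4 and 6 months (-0.15 at both, FDR 0.0403 and 0.014).

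Irf4 encodes a factor that competes with IRF8 and other members for PU.1-bound sites and limits MyD88 signaling by IRF5. It was the only member that fell against WT in the values as deposited, fitted without a replicate block. At 2 months it stood at 5.81, 5.88, 5.88 and 5.76 in WT and 5.64, 5.5, 5.66 and 5.53 in rTg4510. All rTg4510 libraries were below all WT libraries, yet the difference of -0.25 (SE 0.0885) had an FDR of 0.116. At 4 months the signals were 5.80, 5.6 and 5.42 in WT and 4.89, 4.94 and 4.61 in rTg4510. Irf4 fell by 0.80 (95% interval -1.01 to -0.58, 1.74-fold, FDR 4.14e-06), and the highest rTg4510 library lay well under the lowest WT library. At 6 months 5.44, 5.63, 5.55 and 5.63 in WT stood against 5.0, 5.07, 4.94 and 4.86 in rTg4510. The groups were apart again, and the fall of Irf4 (-0.59, SE 0.0885, 1.51-fold, FDR 1.77e-05) made it a DEG by a small margin, which was lost with quantile normalization and without WT replicate 2 or 4 or rTg4510 replicate 3 or 4, while the FDR stayed between 7.87e-06 and 0.000128 when single libraries were left out.

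At 8 months Irf4 was at 5.41, 5.73 and 5.48 in WT and 5.46, 5.21 and 5.45 in rTg4510, and the groups overlapped (-0.16, 95% interval -0.37 to 0.05, FDR 0.277). The difference at 4 months was further below 0 than that at 2 months, by -0.55 (SE 0.135, FDR 0.0158, where 7.33% of all genes passed in this test). Between 4 and 8 months the genotype difference moved back by 0.64 (95% interval 0.33 to 0.94), with an FDR of 0.0808. This return passed with the replicate number as a random block (FDR 0.0446), with all 32 libraries (0.61, FDR 0.0274) and without WT replicate 2 of 8 months (0.73, FDR 0.0331), and not with a fixed block (FDR 0.142). Both blocks also joined same-numbered libraries at 4 months, where the numbers were not taken to pair them. Within rTg4510, Irf4 fell by 0.77 from 2 to 4 months (FDR 9.16e-06, where 15.2% of all genes passed), while the WT difference between these ages was -0.23 (FDR 0.42). In the order of means, rTg4510 at 4 and 6 months held the lowest places and were separated from rTg4510 at 8 months by 0.41, the only step in this order where neighbouring groups did not overlap.

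Other cells that carry Irf4 could have been captured with CD11b, and the values of their markers are given beside it. In a bulk sample fewer cells of a type and less RNA per cell cannot be told apart. Of 7 dendritic cell markers measured, Cd209a (-0.88, FDR 0.00475) and Ccr9 (-1.04, FDR 0.0302) fell at 4 months, and Cd209a fell also at 6 and 8 months (-0.49 and -0.66, FDR 0.0481 and 0.0287), and Irf4 passed at 6 but not at 8 months. The list's summed level (log2 of the summed signals) was 8.92 to 9.29 in WT and 8.38 to 8.68 in rTg4510 at 2 months, 8.87 to 9.29 and 8.34 to 8.55 at 4 months, 9.25 to 9.52 and 8.97 to 9.30 at 6 months, and 9.21 to 9.51 and 8.89 to 9.37 at 8 months. By this sum the genotypes were apart at 2 and 4 months and overlapped at 6 and 8 months. The ranges of Irf4 itself were apart at 2, 4 and 6 months and overlapped at 8 months. The dendritic list's mean log2 signal overlapped at 2 months (5.41 to 5.66 in WT, 4.97 to 5.42 in rTg4510). It was apart at 4 months (5.34 to 5.63 and 5.0 to 5.11). Of 7 B and plasma cell markers Cd79a (-1.64, FDR 0.0186) and Cd79b (-0.76, FDR 0.012) fell at 4 months and none at 6 months. The list's mean log2 signal overlapped at 4 months (5.08 to 5.99 in WT, 4.96 to 5.75 in rTg4510). Its summed level was apart and higher in rTg4510 at 4 months (12.2 to 12.4 in WT, 12.49 to 12.56 in rTg4510). The same held for the sum at 2 months (12.39 to 12.52 and 12.8 to 12.96), so the 2 measures differed for this list. Cd22, which is on this list and is also known from microglia, rose at all 4 ages, by 2.69 at 4 months. Ighm, on the same list, rose at 2 months (0.42, FDR 0.00251) and was at 0.24 (FDR 0.0817) at 4 months. Of 5 monocyte markers Ccr2 fell at 4 months (-1.05, FDR 0.00998) and was at 0.21 at 6 months, when Ly6c2 (-0.86), Plac8 (-1.36) and Chil3 (-1.45) fell and Vcan rose (1.38, FDR 0.0418). The summed monocyte level was 7.50 to 7.87 in WT and 6.65 to 6.99 in rTg4510 at 4 months and overlapped at 6 months (7.58 to 7.69 and 6.75 to 7.99). Of 7 border macrophage markers Lyve1 fell at 6 months (-0.84, FDR 0.00542), with list medians of -0.52 at 4 and -0.32 at 6 months. The summed border macrophage level was 10.55 to 11.33 in WT and 10.21 to 10.47 in rTg4510 at 4 months. The genotypes were thus apart at 4 months, also in the mean log2 signal (7.39 to 8.19 and 7.11 to 7.37). At 6 months the sums overlapped (10.49 to 11.03 and 10.28 to 10.65). None of the markers on these lists was within 1 log2 unit of the library's lowest value in all libraries of a group. The part of such cells in the fall of Irf4 was not tested.

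Genes linked to IRF4 held DEGs on both sides. Of 10 such genes, 0, 1, 2 and 3 rose as DEGs at the 4 successive ages, beside 1.58%, 9.47%, 11.3% and 10.5% of all genes. DEGs that fell numbered 0, 1, 2 and 0, beside 0.403%, 4.33%, 8.54% and 5.37% of all genes. The list's median log2 fold changes were 0.01, -0.39, -0.13 and 0.42. Retnla and Chil3, both alternative activation genes of macrophages, were the lowest. Retnla fell at 4 months (-1.57) and 6 months (-1.39), with FDR values of 0.0321 and 0.02, and was at -0.33 (FDR 0.691) at 8 months. Chil3 fell at 6 months (-1.45, FDR 0.0254) and is also on the monocyte marker list. Bcl6, a repressor in germinal centre B cells and macrophages, rose instead, by 0.87, 0.91 and 1.11 at 4, 6 and 8 months, and Prdm1, the regulator of plasma cell fate, by 0.46, 0.87 and 0.77. Arg1 and Mrc1 passed at no age.

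The proteins that IRF4 and IRF8 bind DNA with did not move as one either. Of 10 partner genes, Spib, an Ets factor of B cells and plasmacytoid dendritic cells, fell at 4 months (-2.48, SE 0.789, FDR 0.0263), and Maf fell at 4, 6 and 8 months (-0.73, -0.92 and -0.88, FDR 0.000214, 1.26e-06 and 1.97e-05). Batf, an AP-1 partner of both factors, rose as a DEG at 8 months (0.63, FDR 0.0435) and Cebpb at 6 months (0.63, FDR 0.0137). Spi1, which encodes PU.1, was at 0.12, 0.13 and 0.28 at 4, 6 and 8 months (FDR 0.431, 0.267 and 0.0504).

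Irf1 rose late. Signals of the WT libraries at 6 months were 5.24, 5.15, 5.26 and 5.45, against 5.47, 5.59, 5.63 and 5.74 in rTg4510. The highest WT library lay just under the lowest rTg4510 library, and Irf1 rose by 0.33 (SE 0.101, 1.26-fold, FDR 0.0142). This call was lost without WT replicate 2 of that age (0.29, FDR 0.0502) and with all 32 libraries (0.33, FDR 0.15). At 8 months 5.12, 5.41 and 4.97 in WT stood against 6.08, 6.08 and 5.79 in rTg4510. The groups were clearly apart, and the rise of 0.82 (95% interval 0.58 to 1.06, 1.77-fold, FDR 1.22e-05) made Irf1 a DEG. At 2 months the difference was 0.22 (SE 0.101, FDR 0.266) and at 4 months -0.14 (SE 0.117, FDR 0.432), with overlapping ranges at both ages.

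The genotype difference of Irf1 itself differed between ages. It was larger at 8 than at 2 months by 0.60 (95% interval 0.28 to 0.92, FDR 0.0151, where 9.76% of all genes passed) and larger at 8 than at 4 months by 0.96 (interval 0.62 to 1.31, FDR 0.0148, where 0.145% of all genes, 27 in number, passed). Both comparisons use the libraries of 8 months. The first lost its call without WT replicate 3 or rTg4510 replicate 2 of 8 months or with all 32 libraries, and the second without rTg4510 replicate 2 of 4 months or rTg4510 replicate 1 or 2 of 8 months, with FDR values up to 0.0578 and 0.0572 when single libraries were left out. Within rTg4510 Irf1 rose by 0.66 from 2 to 8 months (SE 0.109, FDR 0.000122). The step from 4 to 6 months passed narrowly (0.43, FDR 0.0482, where 1.73% of all genes passed) and did not pass with moderated variances, with quantile normalization or without most single libraries. WT libraries had means between 5.101 and 5.321 at the 4 ages. In the order of means, rTg4510 at 6 and 8 months held the top places, each apart from the group below it, while the 6 lower groups overlapped with their neighbours.

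Of 16 genes known as IRF1 targets, 1, 2, 3 and 3 rose as DEGs at the 4 successive ages, beside 1.58%, 9.47%, 11.3% and 10.5% of all genes. DEGs that fell numbered 0, 2, 3 and 2, beside 0.403%, 4.33%, 8.54% and 5.37% of all genes. The list's median log2 fold changes were 0.0, 0.09, 0.17 and 0.26. Cd274, which encodes the checkpoint ligand PD-L1, rose at every age, by 0.75, 2.02, 1.67 and 1.96 (FDR 0.00197 to 7.24e-09), also at 2 and 4 months where Irf1 did not pass. B2m, the light chain of MHC class I, rose by 0.83, 0.82 and 0.86 from 4 months on, and Nlrc5, the activator of MHC class I genes, by 0.75 and 1.15 at 6 and 8 months. Tap1, a peptide transporter, passed only at 8 months (0.34, FDR 0.00639). Guanylate-binding proteins went the other way: Gbp7 (-1.14, -1.41 and -1.29) and Gbp3 (-0.78, -1.28 and -0.93) fell at 4, 6 and 8 months, and Gbp2 (-0.84) fell at 6 months. Gbp genes are close copies of each other, so reads may be split among them, and their values are uncertain.

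Irf2, the antagonist of IRF1, had genotype differences of 0.0014, -0.18, -0.17 and -0.13 at 2, 4, 6 and 8 months, with FDR values of 0.996, 0.115, 0.0575 and 0.255. At 6 months the libraries had 7.89, 7.87, 7.86 and 7.75 in WT and 7.79, 7.66, 7.68 and 7.57 in rTg4510, where only the highest rTg4510 library reached the WT range. With the replicate number as a block the 6-month FDR was 0.0456 (fixed effect) or 0.0405 (random effect), and with quantile normalization Irf2 passed as lower at 4, 6 and 8 months (-0.24, -0.26 and -0.20, FDR 0.0172, 0.00176 and 0.0339). At 4 months, 7.88, 7.93 and 7.91 in WT did not overlap with 7.63, 7.83 and 7.73 in rTg4510. The 95% intervals at all ages stayed within -0.34 and 0.14, all under a 1.5-fold change. Over the 28 libraries, deviations of Irf1 and Irf2 from their group means had r = -0.64, a description over libraries that share the table's normalization. This was the largest in size of the correlations between members within groups, the next being -0.492 for Irf1 and Irf7.

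Irf7, the amplifier of type I interferon, had the largest fold change of the family and the largest spread. Its signal was low, between 1.32 and 3.64 log2 units above the lowest value of its library, while the other members lay at least 3.16 above. Signals at 8 months were 4.15, 3.51 and 4.07 in WT and 5.11, 4.63 and 5.05 in rTg4510, and the groups did not overlap. Irf7 rose by 1.02 (SE 0.274, 95% interval 0.45 to 1.59, 2.03-fold, FDR 0.00783, n = 3). At 6 months 4.06, 3.59, 3.85 and 3.95 in WT stood against 5.15, 4.10, 4.12 and 4.22 in rTg4510. The groups did not overlap here either, but replicate 1 of rTg4510 was far above the other rTg4510 libraries and the difference of 0.53 (SE 0.237) had an FDR of 0.0913. At 4 months 3.91, 3.74 and 3.87 in WT were all below 4.60, 4.27 and 3.93 in rTg4510, with a difference of 0.42 (SE 0.274, FDR 0.297). At 2 months the genotypes overlapped widely (0.09, SE 0.237, FDR 0.925), WT replicate 1 having the lowest Irf7 signal of the 28 libraries at 3.23.

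Within rTg4510, Irf7 rose by 1.01 from 2 to 8 months (SE 0.256, FDR 0.00655), and WT differed by 0.07 (FDR 0.91). The genotype difference at 8 months exceeded that at 2 months by 0.94 (95% interval 0.18 to 1.69, FDR 0.121), which did not pass, but did without WT replicate 1 of 2 months (1.14, FDR 0.0428). WT group means lay between 3.836 and 3.91 at the 4 ages. Without WT replicate 2 of 8 months the rise at 8 months was 0.82 and its FDR 0.0529, so the call rests in part on that library.

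Part of the interferon-stimulated genes rose, a single DEG (Phf11b, 0.70, FDR 0.00206) already at 2 months. Of 30, 1, 9, 13 and 11 rose as DEGs at the 4 successive ages, beside 1.58%, 9.47%, 11.3% and 10.5% of all genes. At each age 0 fell as DEGs, beside 0.403%, 4.33%, 8.54% and 5.37% of all genes. The list's medians were 0.25, 0.51, 0.60 and 0.53 against 0.01, -0.04, -0.04 and -0.01 over all genes. Cxcl10, a chemokine for T cells, rose most, by 2.35, 1.42 and 1.92 at 4, 6 and 8 months (FDR 0.000602, 0.00872 and 0.00331). Lgals3bp rose by 1.31, 1.29 and 1.53 and Ifi44 by 1.13, 1.0 and 1.0 at these ages. Usp18, the protease that removes ISG15 and damps receptor signaling, rose by 0.67, 0.64 and 0.76. Mx1, Oas2, Rtp4 and Trim30a, which respond to type I interferon in most cells, passed at no age, and Isg15 passed only at 6 months (0.94, FDR 0.0481). Herc6 was the lowest and fell at 6 and 8 months (-0.24 and -0.27). The mean log2 signal of the list was 5.79 to 6.07 in WT and 6.46 to 6.51 in rTg4510 at 8 months, and at 2 months it was 5.54 to 5.64 and 5.72 to 5.97, so the ranges were apart at both ages. Ifit, Oas, Oasl, Ifi44 and Phf11 genes have close copies, and reads may be split among them.

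**Figure D3:**
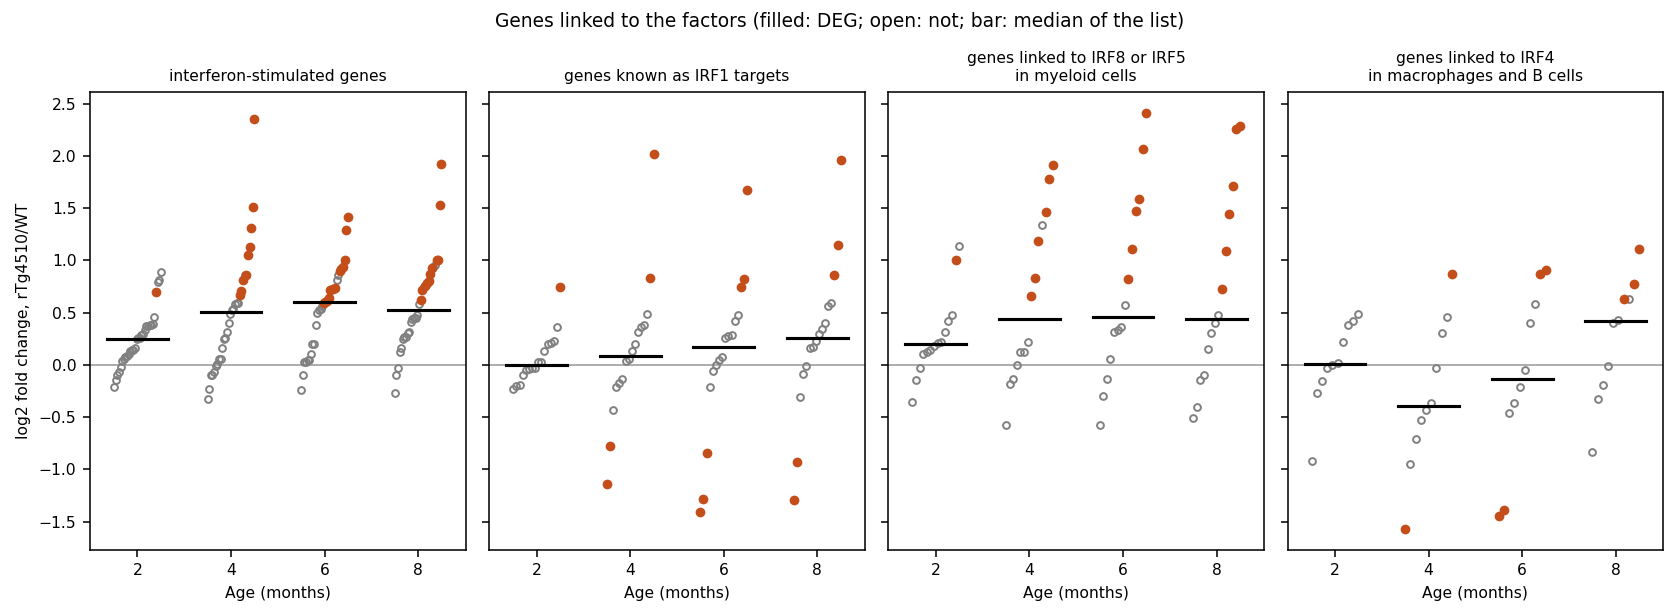
Log2 fold change of rTg4510 over WT (y axis) by age in months (x axis) for 4 lists of genes linked to the factors, each point a gene, filled points DEGs, bars the median of the list. Interferon-stimulated genes and genes linked to IRF8 or IRF5 had medians of 0.44 to 0.60 from 4 months on with no DEG below 0, whereas IRF1 targets and genes linked to IRF4 held DEGs on both sides.

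Irf9, the DNA-binding subunit of the interferon-induced STAT complex, did not pass at any age, with differences of -0.00012, 0.23, 0.10 and 0.05 (FDR 0.999, 0.188, 0.504 and 0.827). The largest, at 4 months, came from 6.03, 5.68 and 5.87 in WT and 6.13, 6.17 and 5.97 in rTg4510, which overlapped. The 95% interval there reached 0.48, under 1.5 fold. Irf3, which like IRF7 is activated by phosphorylation but is made constitutively, was likewise within narrow limits. Its differences were -0.04, -0.15, 0.04 and -0.08, with no FDR below 0.112 and intervals within -0.29 and 0.16. At 4 months 7.0, 6.89 and 7.03 in WT lay above 6.86, 6.77 and 6.85 in rTg4510.

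Of 8 receptor, JAK and STAT genes, 0, 0, 0 and 1 rose as DEGs at the 4 ages, beside 1.58%, 9.47%, 11.3% and 10.5% of all genes. DEGs that fell numbered 0, 1, 0 and 1, beside 0.403%, 4.33%, 8.54% and 5.37% of all genes. By FDR alone 0, 3, 4 and 3 rose and 1 fell at each age. In either direction 6.03%, 23.2%, 34.1% and 25.7% of all genes passed by FDR alone. The type I receptor genes rose, Ifnar1 by 0.28, 0.47 and 0.63 and Ifnar2 by 0.31, 0.49 and 0.49 at 4, 6 and 8 months. The interferon-γ receptor subunits went apart. Ifngr1, the ligand-binding chain, fell at all 4 ages (-0.28, -0.63, -0.51 and -0.62, FDR 0.0102 to 1.79e-06), and Ifngr2 rose by 0.28, 0.27 and 0.40 from 4 months on. Stat2, Jak1 and Tyk2 passed at no age.

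Upstream of IRF3, IRF5 and IRF7, 24 sensors, adaptors and kinases were measured. Of these 0, 1, 2 and 3 rose as DEGs at the 4 ages, beside 1.58%, 9.47%, 11.3% and 10.5% of all genes. DEGs that fell numbered 0, 0, 2 and 2, beside 0.403%, 4.33%, 8.54% and 5.37% of all genes. Zbp1, a sensor of Z-form nucleic acids and itself interferon-induced, rose most on average, by 1.24, 0.61 and 0.75 at 4, 6 and 8 months. Tank, an adaptor of TBK1, rose by 0.40, 0.67 and 0.67, and Ikbke, the IKKε kinase, at 8 months by 0.84 (FDR 0.0308). Tlr3, the endosomal receptor for double-stranded RNA, was the lowest, falling at all 4 ages (-0.37, -0.53, -0.92 and -0.74), and Sting1, the adaptor of the cGAS pathway, fell likewise (-0.25, -0.57, -0.65 and -0.71). Tbk1, Mavs, Myd88 and Cgas passed at no age. Ddx58 fell at 4 and 6 months (-0.45 and -0.40, FDR 0.000208 and 0.000102). Ifih1 rose at 6 and 8 months (0.38 and 0.30, FDR 0.000824 and 0.0194), and both genes stayed short of 1.5 fold. Tlr7 fell at 2 months (-0.34, FDR 0.0129) and was at 0.13, 0.06 and 0.11 later.

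Among 13 cofactors and inhibitors, 0 fell as DEGs at each age, beside 0.403%, 4.33%, 8.54% and 5.37% of all genes. DEGs that rose numbered 0, 2, 2 and 2, beside 1.58%, 9.47%, 11.3% and 10.5% of all genes. The 2 genes were Tnfaip3, the A20 inhibitor of inflammatory signaling, which rose by 1.09, 1.72 and 1.61 at 4, 6 and 8 months, and Usp18 with the values above. Trim21, a ligase for IRF proteins, was the lowest and fell at 6 and 8 months (-0.42 and -0.57). Irf2bpl fell at 4 and 6 months (-0.37 and -0.27), and Irf2bp2, a corepressor of IRF2, rose by 0.29 at 6 months.

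**Figure D4:**
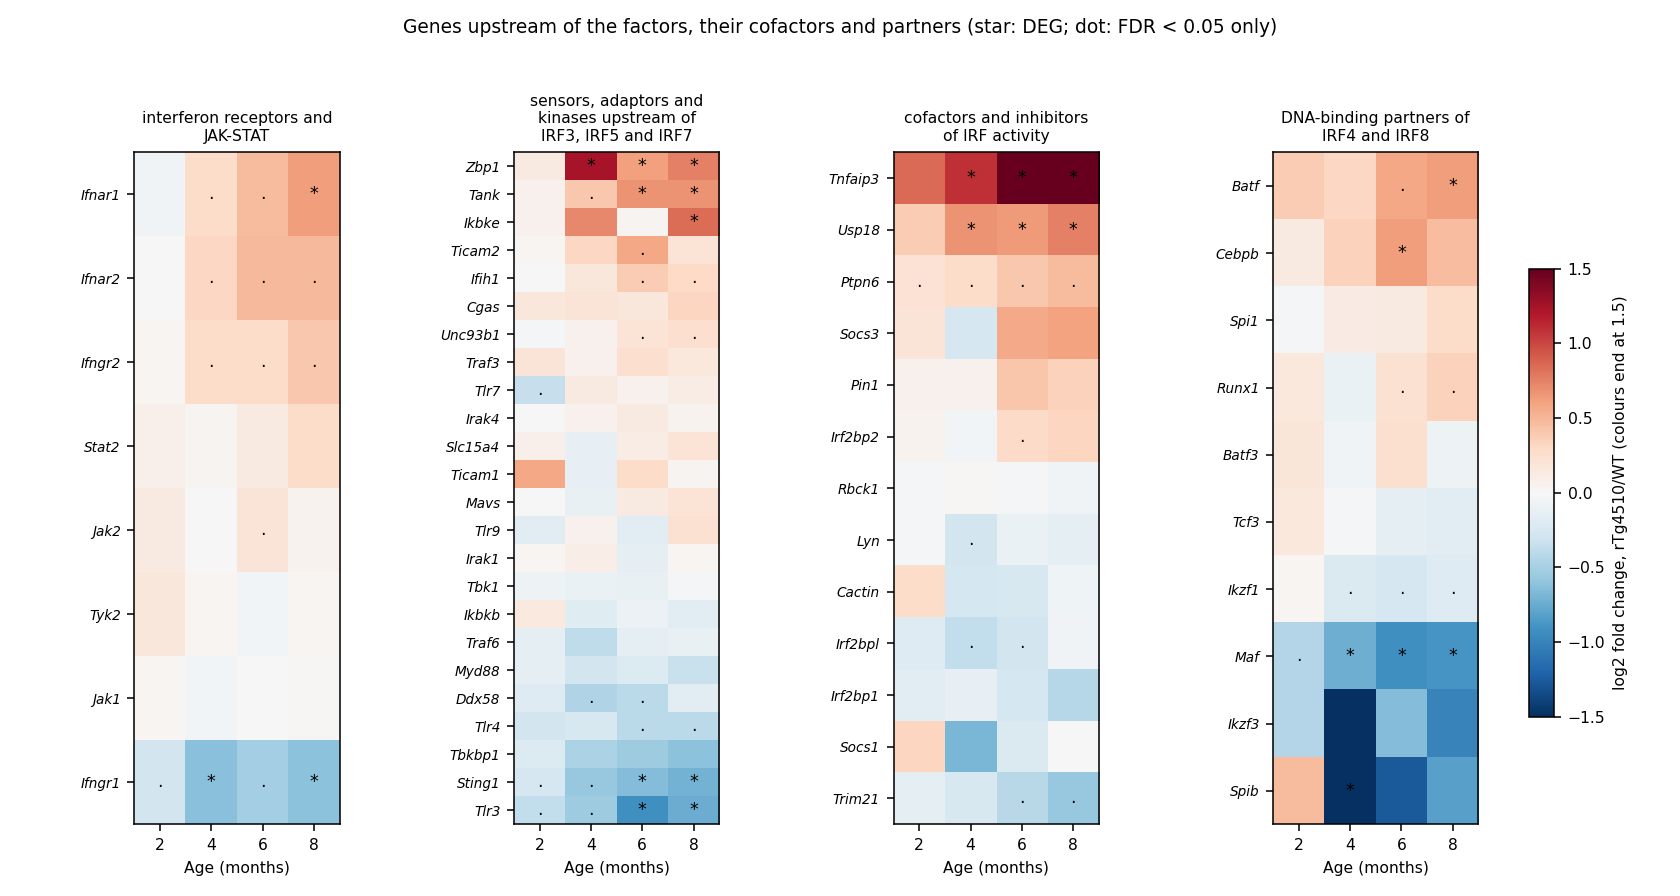
Log2 fold change of rTg4510 over WT (colour, ending at 1.5 in either direction) by age in months (columns) for receptor, upstream, cofactor and partner genes (rows), stars marking DEGs and dots an FDR below 0.05 alone. Ifnar1 and Ifnar2 passed upward and Ifngr1 downward from 4 months on, and Tnfaip3 and Zbp1 held the darkest reds.

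The labelled cell type was checked on its markers: all 10 microglia markers were measured, with a mean log2 signal between 9.72 and 10.54 over the libraries, and none was within 1 log2 unit of the library's lowest value in all libraries of a group. The microglia list was lower in rTg4510, with 0 rising as DEGs at every age, beside 1.58%, 9.47%, 11.3% and 10.5% of all genes. Of its genes 1, 2, 3 and 3 fell as DEGs at the 4 successive ages, beside 0.403%, 4.33%, 8.54% and 5.37% of all genes. Sall1 and Tmem119 were among those that fell from 4 months on. Neutrophil markers fell as DEGs, 6 of 7 at 6 months and 5 of 7 at 8 months, beside 8.54% and 5.37% of all genes. Irf8 and Irf1 rose at these ages, and Irf4 fell at 6 months. The summed neutrophil level at 6 months was 9.02 to 10.28 in WT and 7.39 to 8.12 in rTg4510, and Elane was within 1 log2 unit of the lowest value in all rTg4510 libraries of that age. The part of neutrophils in the members' differences was not tested.

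Genes most like each member over the 28 libraries, by Pearson correlation of signals and given as a description, were as follows. Irf8 was closest to Tomm20 (r = 0.918), a gene with the table number 667846 and Gapdh (both 0.913). Irf4 was closest to Gas6 (0.89), Slc52a3 and Pygm (both 0.857), and Gas6, a ligand of TAM receptors, had signals of 7.691 ± 0.114 in WT and 7.226 ± 0.0659 in rTg4510 at 4 months (SD, n = 3). Irf1 was closest to Gpx3 (0.826), Pde4b and Serpinb6a, and Irf7 to Sorl1 (0.806) and the gene numbered 100503907. Irf5 was closest to Plekho1 (0.854), Wac and Pura, and Irf2 to Nsd1 (0.842), Trmt1l and Cbl. Irf3 (Ddx52, 0.692) and Irf9 (Cd3eap, 0.684) had no relation above 0.7.

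Within groups, after the group means were taken off, the order of likeness changed. Irf4 was closest to Ccl17 (r = 0.807), a chemokine of dendritic cells, followed by Ehbp1l1 (0.791) and the gene numbered 664840. Ccl17 signals at 2 months were 4.37 to 5.06 in WT and 2.77 to 3.93 in rTg4510, a difference of -1.46 (SE 0.423, FDR 0.0446). Its part in the values of Irf4 was not tested. Irf8 was closest to Rac2 (0.806), a GTPase of the phagocyte oxidase, Gm2606 and Spata13, and Irf2 to Man1a2 (0.835). Irf1 was led by Armc2 (0.759), Irf5 by Eif2b2 (0.755), Irf7 by Gm7046 (0.71), Irf9 by Inpp5e (0.763) and Irf3 by Lrrc34 (0.688). Between members, Irf4 and Irf8 had r = -0.675 over the levels, which includes the genotype difference of both.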

How the data were processed

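The deposited values are log2 gene signals, 1 per gene and library, which the authors made with their own pipeline. Exon reads were summed over runs, exons with few counts in most samples were left out, the exons of a gene were combined with a robust linear model, and the log2 signals were median normalized, so a change of the whole RNA content is not seen and each library's median was 5.63. The build is GRCm38 by the submitters' processing notes, and the aligner and annotation are not given in the sources used here. The study's methods give a like sequencing depth for all samples, but the signals hold no read totals, so the depth behind a single value is unknown and the number of libraries limits the precision. The values are already on a log scale, so no pseudocount applies. Whether signals were divided by gene length is not given in the sources used here, so differences were tested within a gene only. Summed list levels, list means and distances from a library's lowest value set genes side by side and are descriptions.

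Of 18588 Entrez numbers, 95.9% were named through the RefSeq table of GRCm38.p6, and 0 columns of values were left unused. Every gene of the 28 libraries was fitted with its 8 group means and an unmoderated variance (20 residual degrees of freedom) in limma (version 3.58.1, under R 4.3.3, tables read by data.table version 1.17.8). FDR values were Benjamini-Hochberg adjusted over all 18588 genes separately for each contrast, and a DEG had to show an FDR below 0.05 with more than 1.5 fold. Genotype contrasts at 4 ages, 6 differences between ages and 8 age contrasts within a genotype were computed. The alternatives were all 32 libraries, moderated variances, quantile normalization, a replicate block, the libraries of 1 age alone, leaving out each library, and only those genes whose mean signal exceeded the 25th percentile. The libraries of a group are biological replicates by the study's text, each from pooled forebrains, so p-values measure the spread between pools and not between animals. Python 3.11.15 with numpy 2.4.6, pandas 2.3.3, scipy 1.17.1 and matplotlib 3.10.9 made the tables and figures.

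The 20 gene lists, which include that of the members, were taken from general knowledge and chosen with earlier results of these data known. Named are the 8 members, of each list the genes with the largest and smallest mean difference over 4, 6 and 8 months and direct partners or targets, and the 3 genes most correlated with each member. Some genes that fall under these rules are not reported here. Other genes, where named, were chosen after their values were seen. Labels give both genotypes the same replicate numbers. Deviations of same-numbered libraries correlated with r of 0.131 to 0.153 at 6 months and 0.15 to 0.291 at 8 months. Differently numbered libraries reached at most 0.091 and -0.028 at these ages. The numbers were taken to pair the libraries there, on the values alone. At 2 months (0.065 to 0.167) and 4 months (-0.1 to 0.124) they were not, since differently numbered libraries reached 0.082 and 0.154. The fit behind the printed FDR values is unpaired unless a replicate block is named. Where it is named, the block joined same-numbered libraries at every age, also at 2 and 4 months.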

Additional observations from a re-analysis of the deposited data

Results flagged for a closer look

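In 32 sets of 4 libraries (8 members, both genotypes, 2 and 6 months), 1 library stood apart by Dixon's 95% criterion, which flags about 1 in 20 sets by chance. This was rTg4510 replicate 1 at 6 months, with an Irf7 signal of 5.15 against 4.10, 4.12 and 4.22 in the other rTg4510 libraries (Dixon ratio 0.885). Without it the Irf7 difference at 6 months was 0.28.

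The genotype difference of Irf4 moved by -0.55 from 2 to 4 months (FDR 0.0158). The genotype difference of Irf1 was 0.60 larger at 8 than at 2 months (FDR 0.0151) and 0.96 larger at 8 than at 4 months (FDR 0.0148). These were tested as interaction terms in limma, and the last 2 share the libraries of 8 months. Of the other 3 comparisons of ages, 6 against 2, 6 against 4 and 8 against 6 months, 0 members passed in limma, with 2 members each at an unadjusted p under 0.05, where 25.1%, 8.15% and 4.52% of all genes had one.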

How the results depend on the processing

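Directions of the called members held under every alternative run, while several calls depended on the setting. DEGs at 4 months numbered 0, and at 8 months 0, when the libraries of the age were fitted alone. At 6 months there were 0 with quantile normalization and 0 to 2 when single libraries were left out, and at 8 months 1 to 2. Irf7 lies below the 25th percentile of signal, and 1 DEG was left at 8 months among genes above it. Members passing by FDR alone numbered 4 at 4 months and 5 at 6 months with quantile normalization, and 1 at 4 months and 0 at 8 months for the age alone, and 2 to 3, 2 to 4 and 2 to 3 at 4, 6 and 8 months with single libraries left out (Irf3 passing at 4 months without rTg4510 replicate 1 of 8 months, FDR 0.0413). Of the differences between ages, 4 against 2 months had 0 to 1 when single libraries were left out. For 8 against 2 months there were 0 with all 32 libraries and 0 to 2 with single libraries left out. For 8 against 4 months there were 2 with all 32 libraries, 2 with a random replicate block (Irf4 joining Irf1), and 0 to 2 with single libraries left out. Within rTg4510, 4 against 2 months had 2 with quantile normalization and 1 to 2 with single libraries left out, and 6 against 4 months had 0 with moderated variances or quantile normalization and 0 to 1 with single libraries left out. Within WT, 8 against 2 months had 0 with all 32 libraries. The cause was not tested.

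Small differences that were not called changed sign: Irf2 at 2 months (-0.02 with quantile normalization, -0.04 to 0.04 with single libraries left out), Irf3 at 4 months (0.09, all 32 libraries), at 6 months (-0.0014, quantile normalization) and at 8 months (-0.14 to 0.02), Irf5 at 8 months (-0.03 with all 32 libraries, -0.04 with quantile normalization, -0.02 to 0.07), Irf7 at 2 months (-0.12 to 0.24), and Irf9 at 2 months (-0.08 to 0.07), 4 months (-0.10, all 32 libraries) and 8 months (-0.06 to 0.16), the ranges being those with single libraries left out.

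The difference of Irf8 between 8 and 4 months also changed sign (0.07 with all 32 libraries, -0.11 to 0.06 with single libraries left out).

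With the replicate block as a fixed or random effect (consensus correlation 0.106), the numbers of DEGs stayed at 0, 1, 2 and 2 at the 4 ages, and Irf2 passed by FDR alone at 6 months (0.0456 and 0.0405). The Irf8 difference between 6 and 2 months passed with both blocks (0.048 and 0.0331), and that of Irf4 between 8 and 4 months with the random block alone (0.0446, against 0.142). Contrasts of ages within a genotype could not be fitted with the fixed block. Leaving out 1 library where 3 remain assumes that the smaller group varies like the others. With 3 or 4 libraries a group, an interval of Irf7 spans more than 1 log2 unit at 8 months, from 0.45 to 1.59, so its size is known poorly.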
